A study of Mus musculus with 3 samples.

Results

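The genes described here are 40 cell cycle genes, chosen by name from the 31054 features of the count files and followed through the cells of the mouse lung. A total of 17 act mainly in S phase (Pclaf, Ccne1, Ccne2, Cdc6, Cdt1, Mcm2, Mcm3, Mcm4, Mcm5, Mcm6, Mcm7, Pcna, Tyms, Rrm1, Rrm2, Tk1 and Gins2). Another 22 act mainly in G2 and mitosis (Mki67, Top2a, Birc5, Ube2c, Cdca8, Cdca3, Cenpf, Cenpa, Cenpe, Ccnb1, Ccnb2, Ccna2, Tpx2, Cdk1, Cdc20, Aurka, Aurkb, Bub1, Plk1, Nusap1, Kif11 and Hmgb2), and Stmn1 was placed in neither phase. Lung tissue was profiled by droplet-based 3' single-cell RNA sequencing in 3 libraries, 1 per group. The groups were wild-type mice without irradiation (the control), irradiated wild-type mice, and irradiated mice with a conditional knockout that also received a drug. The labels name neither the knocked-out gene, the promoter or cells in which it was removed, the drug, the radiation dose, the time of collection, the age of the mice, nor how many mice went into a library. In the third library the knockout and the drug cannot be told apart, because both differ from the irradiated wild-type library at once. With 1 library per group no difference between groups could be tested, and the intervals below are 95% intervals of counting error only.

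The cell cycle copies and divides the genome once per round. In G1 the origins of replication are licensed by Cdc6 and Cdt1, which load the ring of Mcm2 to Mcm7. In S phase nucleotides are supplied by Rrm1, Rrm2, Tyms and Tk1, while Pcna clamps the polymerase to DNA. Cyclin A and cyclin B then drive Cdk1 into mitosis, Aurora and Polo kinases with kinesins and centromere proteins build the spindle, and Cdc20 and Ube2c mark proteins for destruction at its end. Many S phase genes are switched on by E2F factors, and many mitotic genes by B-Myb and FoxM1 on the MuvB complex, which binds the element TTTGAA. Most cells of an adult lung rest outside the cycle, and ionising radiation damages DNA and can hold dividing cells in G1 or G2.

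Cells with at least 250 genes, at least 1000 UMIs (unique molecular identifiers, 1 per captured RNA molecule) and at most 15% mitochondrial UMIs were kept. That left 11464 non-irradiated, 5640 irradiated wild-type and 9408 knockout-with-drug cells, 26512 in all, from libraries of 85984536, 45800421 and 76667310 UMIs. The median cell held 5388, 5792 and 6230 UMIs. The libraries shared 25 to 46 cell barcodes pair by pair, and 1 cycling cell had a barcode found in another library. The irradiated wild-type library stood apart in sex: 28.1% of its cells carried Y-linked UMIs and no Xist, against 1 cell of the non-irradiated library and 27 cells of the knockout-with-drug library. That library therefore held cells of both sexes, and the cycling shares are also given for cells of female type where such cells allowed a value. Levels of single genes are given for all cells only.

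The members made up 0.0782% of UMIs in the non-irradiated library, 0.149% in the irradiated wild-type library and 0.139% in the knockout-with-drug library. A cell was called cycling when members made up at least 1% of its UMIs. This held for 36 of 11464 non-irradiated cells, a share of 0.314% (0.22 to 0.434). In the irradiated wild-type library it held for 28 of 5640 cells, or 0.496% (0.330 to 0.717), and in the knockout-with-drug library for 34 of 9408, or 0.361% (0.250 to 0.505). The 3 intervals overlap, and the ratio of irradiated wild-type to non-irradiated was 1.58 (0.966 to 2.59). Cells of female type alone gave 0.279% (27 of 9674; 0.184 to 0.406), 0.738% (22 of 2980; 0.463 to 1.12) and 0.383% (31 of 8102; 0.260 to 0.543). There the non-irradiated and irradiated wild-type intervals do not overlap, with a ratio of 2.65 (1.51 to 4.64), and the ratio of knockout-with-drug to irradiated wild-type was 0.518 (0.301 to 0.894), against 0.728 (0.442 to 1.2) in all cells. The male-type cells of the irradiated wild-type library gave 0.189% (3 of 1586). The call is a range of a continuous score. A total of 14, 15 and 24 cells lay between 0.8% and 1%, and 8, 12 and 12 between 1% and 1.2%. At 0.5% the counts were 77, 90 and 141 cells, which is 0.672%, 1.60% and 1.5% of each library, and the 2 ratios were 2.38 (1.76 to 3.22) and 0.939 (0.722 to 1.22). Cycling cells were deep, with medians of 10870.5, 24939.5 and 17660.5 UMIs. After each cell was thinned to 1000 UMIs, 43, 41 and 41 cells passed the call, or 0.375%, 0.727% and 0.436%, with ratios of 1.94 (1.27 to 2.97) and 0.599 (0.389 to 0.923). Whether an order of the libraries over all cells goes beyond counting error thus changed with the cut, the depth and the cells taken. Ciliated cells of the airway, which have left the cycle, gave 0 of 57, 0 of 42 and 1 of 46 cells called. Mki67, the proliferation antigen Ki-67, had a UMI in 1 ciliated cell of each library (1.75%, 2.38% and 2.17%). The median ciliated cell held 12045, 12813 and 14206 UMIs. The non-irradiated and irradiated wild-type shares, from libraries with no ciliated cell called, are taken as the background of free RNA. In knockout-with-drug 33 of 34 cycling cells had Mki67. Its ciliated share may thus come from the ciliated cell called cycling and is not taken as background.

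Most member UMIs lay outside the cycling cells. Cycling cells held 9.15%, 14.5% and 8.30% of all member UMIs in the 3 libraries. Hmgb2, a chromatin protein, and Stmn1, which destabilises microtubules, are also expressed in resting cells and together gave 52.7%, 49.7% and 52.6% of member UMIs. To see how tightly each member kept to dividing cells without using it in the call, cells were called from the other 39 members, and the share of the left-out gene's UMIs in those cells was divided by the share of all UMIs there. Ccna2 (cyclin A2) was the most concentrated at 52.2-fold, with 45.6% of its UMIs in the called cells. Cenpf, a kinetochore protein, followed at 50.1-fold and Aurkb, the kinase of the chromosomal passenger complex, at 45.9-fold. Nusap1 (41.3-fold) and Tpx2 (40.1-fold), which organise spindle microtubules, and Mki67 (39.7-fold) came next. The S phase gene with the highest value was Pclaf, the Pcna clamp-associated factor, at 35.5-fold, followed by Rrm2, the small subunit of ribonucleotide reductase, at 29.3-fold and Tk1, thymidine kinase, at 27.6-fold.

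At the other end stood genes that many cells used. The lowest values were 3.07-fold for Cdt1, 3.16-fold for Cenpa (20356 UMIs), the centromeric histone, 3.96-fold for Pcna (17004 UMIs) and 4.27-fold for Mcm4. Hmgb2, with 101123 UMIs the most frequent member, stood at 6.29-fold, and its removal from the call left 39 cells. Members of the Mcm ring ranged from 4.27-fold to 11.6-fold (Mcm5), below most mitotic members. All 40 members were above 1, but their values spread over more than an order of magnitude, so a UMI of Ccna2 and a UMI of Pcna did not carry the same weight as a sign of division.

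**Figure D1:**
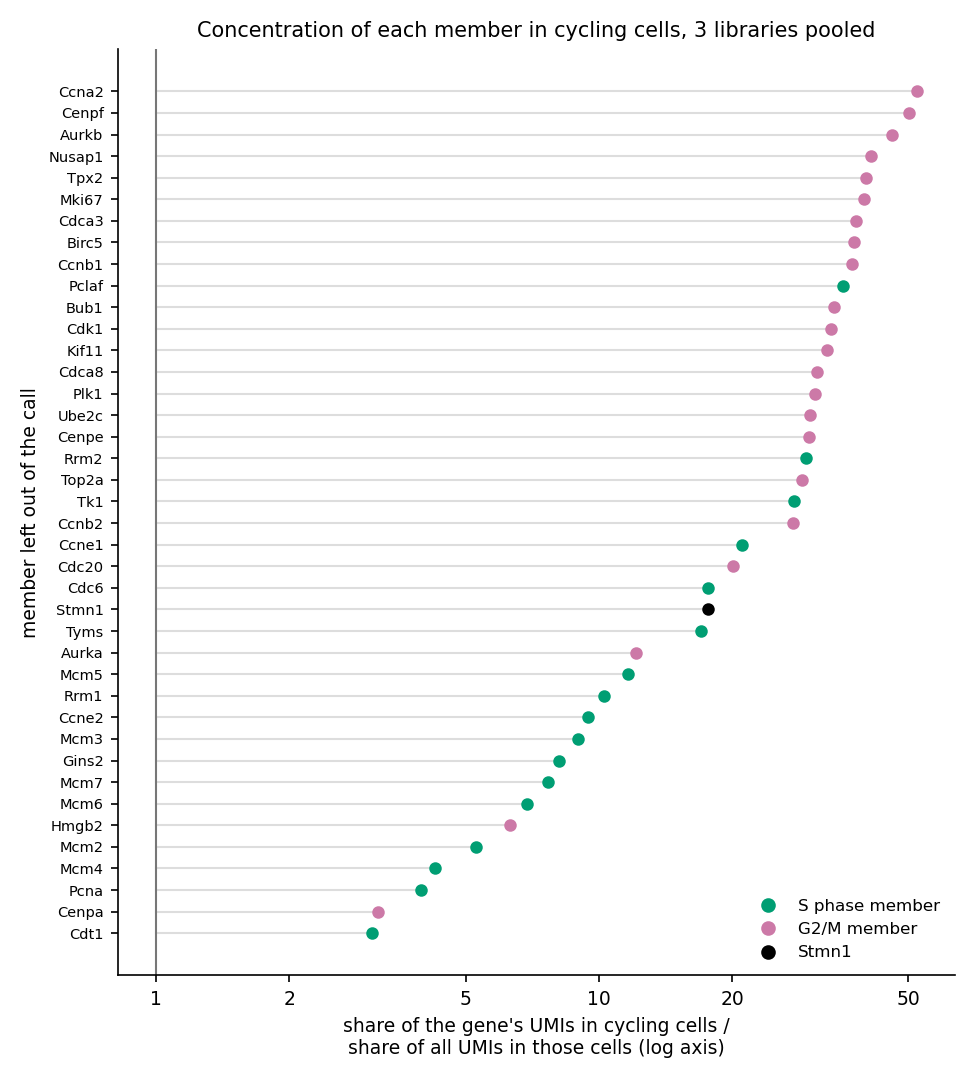
Enrichment of each of the 40 members in cells called cycling from the other 39 members (horizontal log axis, fold over the share of all UMIs; S phase genes green, G2/M genes pink, Stmn1 black; all libraries pooled). Ccna2 is highest at 52.2-fold and Cdt1 lowest at 3.07-fold, and most of the genes at the low end act in S phase.

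Genes outside the 40 offer a check that the call did not use. Among 13808 other genes with at least 200 UMIs, the 15 most concentrated in cycling cells were Pbk (56.9-fold), Hmmr (49.9-fold), Esco2 (48.5-fold), Aspm (47.1-fold), Hist1h2ab (46.4-fold), E2f8 (45.5-fold), Neil3 (43.0-fold), Nuf2 (42.0-fold), Ncapg (39.8-fold), Hist1h3c (38.5-fold), Kif20a (38.2-fold), Mxd3 (37.3-fold), Prc1 (36.4-fold), Hist1h1b (34.7-fold) and Ska1 (34.4-fold). They include spindle genes, condensin and cohesion genes and replication-dependent histones. Of 80 further S and G2/M genes listed for this purpose, 76 had enough UMIs, and 76 of 76 were above 1, with a median of 11.2-fold (1.44 to 56.9) against 0.851-fold for all other genes. The regulators E2f7 (26.2-fold), Foxm1 (19.2-fold) and Mybl2 (18.9-fold) were also concentrated in cycling cells. Of the Cdk inhibitors, Cdkn2a stood at 5.74-fold, Cdkn2c at 3.80-fold and Cdkn2d at 2.84-fold, while Cdkn1a (p21), the inhibitor induced by p53, stood at 0.638-fold and Cdkn1c at 0.21-fold. Klf2, a factor of resting lymphocytes and endothelium, stood at 0.571-fold, and the antiproliferative genes Btg1 and Btg2 at 0.365-fold and 0.367-fold.

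The promoters of the members were searched for 3 elements known from cell cycle genes. The 250 bases before the annotated start are given from RefSeq (GRCm38.p6), 5' to 3' on the strand of the gene, for the 2 S phase and the 2 G2/M members with the highest enrichment that have an entry. Cdk1 was added after its matches were seen, because it was the 1 member with all 3 motifs searched. Capitals mark matches on either strand of CCAAT (the NF-Y box), TTTGAA (the cell cycle genes homology region) and TTTNNCGC (an E2F core), and a match on the other strand is printed as its reverse complement. Pclaf lies at chr9:65890073-65890322 (plus strand), Rrm2 at chr12:24708004-24708253 (plus), Cenpf at chr1:189688087-189688336 (minus), Nusap1 at chr2:119618048-119618297 (plus) and Cdk1 at chr10:69352913-69353162 (minus).
Pclaf: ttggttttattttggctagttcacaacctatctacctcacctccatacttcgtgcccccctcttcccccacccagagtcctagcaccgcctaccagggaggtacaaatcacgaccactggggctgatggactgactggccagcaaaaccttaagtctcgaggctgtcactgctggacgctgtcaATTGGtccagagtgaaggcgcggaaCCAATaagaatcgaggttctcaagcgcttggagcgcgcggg
Rrm2: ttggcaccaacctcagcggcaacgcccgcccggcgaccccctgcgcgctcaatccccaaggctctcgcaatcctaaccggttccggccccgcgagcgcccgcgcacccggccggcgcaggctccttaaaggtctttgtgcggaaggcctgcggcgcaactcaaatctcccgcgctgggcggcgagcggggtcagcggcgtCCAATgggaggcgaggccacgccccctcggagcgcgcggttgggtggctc
Cenpf: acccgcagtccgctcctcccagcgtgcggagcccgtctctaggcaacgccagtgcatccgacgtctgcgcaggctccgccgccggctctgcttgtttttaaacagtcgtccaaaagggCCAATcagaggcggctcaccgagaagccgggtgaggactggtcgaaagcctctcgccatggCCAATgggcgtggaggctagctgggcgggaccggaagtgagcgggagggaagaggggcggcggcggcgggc
Nusap1: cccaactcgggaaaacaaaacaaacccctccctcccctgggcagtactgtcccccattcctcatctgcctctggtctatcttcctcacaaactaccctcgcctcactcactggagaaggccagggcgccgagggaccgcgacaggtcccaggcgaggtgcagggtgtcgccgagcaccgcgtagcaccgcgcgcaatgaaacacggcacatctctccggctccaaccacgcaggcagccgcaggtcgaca
Cdk1: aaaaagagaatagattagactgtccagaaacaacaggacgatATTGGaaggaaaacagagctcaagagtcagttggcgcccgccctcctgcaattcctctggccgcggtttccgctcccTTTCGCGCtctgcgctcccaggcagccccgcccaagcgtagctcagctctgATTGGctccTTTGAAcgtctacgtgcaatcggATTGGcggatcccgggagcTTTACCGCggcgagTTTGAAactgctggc
Pclaf had CCAAT boxes 66 and 41 bases before its start, Rrm2 1 at 50 and Cenpf 132 and 71 bases before, and none of these 3 matched another motif. Nusap1 had no match of any motif in this window. In Cdk1, CCAAT boxes stood 208, 80 and 48 bases before the start, TTTGAA at 71 and 15, and TTTNNCGC at 131 and 29.

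Of the 40 members, 33 had a promoter entry, and Ccna2, Tpx2, Aurkb, Stmn1, Mcm4, Gins2 and Ccne2 are named only. CCAAT was found in 17 of 19 G2/M members and 9 of 14 S members (89.5% and 64.3%), against 33.8% of all 32851 windows in the table. Among the G2/M members, 14 held CCAAT at least 2 times, and 29 of their 45 matches lay within 100 bases of the start. TTTGAA was found in 8 of 19 G2/M members (Ccnb2, Cdc20, Cdk1, Hmgb2, Kif11, Mki67, Top2a and Ube2c) and in 1 of 14 S members (Mcm2), against 16.0% of all windows. TTTNNCGC was found in 4 of 14 S members (Cdc6, Mcm5, Mcm6 and Mcm7) and in 1 of 19 G2/M members (Cdk1), against 4.28% of windows. No match of 1 motif overlapped a match of another in any member. These are matches of letters and say nothing of what was bound in these lungs.

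Cycling cells were sought in 6 classes, each set by UMIs of its own genes. B cells had at least 2 Cd79a UMIs, T cells at least 2 of Cd3d, Cd3e and Cd3g, NK cells at least 1 of Ncr1 with no Cd3, mononuclear phagocytes at least 1 of Csf1r, endothelial cells at least 2 of Pecam1 and Cdh5, and fibroblasts at least 2 of Col1a1 and Col1a2. A cell could fall in more than 1 class. This was so for 1245, 299 and 605 cells, of which 0, 5 and 7 were cycling, while 2068, 1483 and 1900 cells fell in none, of which 3, 1 and 1 were cycling. T cells and the cells of the endothelial rule held most of the cycling cells in every library. RNA of other cell types was seen most often without irradiation. Sftpc, a gene of type 2 alveolar epithelium, was in 98.9% of non-irradiated, 21.3% of irradiated wild-type and 33.9% of knockout-with-drug T cells. Whether this moved class membership or member levels was not tested. The 8 T cell markers summed to 2810, 3201 and 3227 CPM (counts per 1000000 UMIs of the class) in the T class. Cd3d, Cd3e and Cd3g are among these 8 and set the class, so the sum does not check its label. The endothelial rule did not hold up against its markers after irradiation and is treated separately below.

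Among T cells 15 of 1857 were cycling without irradiation, a share of 0.808% (0.453 to 1.33). The irradiated wild-type library had 18 of 2673, or 0.673% (0.400 to 1.06), and the knockout-with-drug library 20 of 5098, or 0.392% (0.240 to 0.605). The ratio of irradiated wild-type to non-irradiated was 0.834 (0.421 to 1.65), and that of knockout-with-drug to irradiated wild-type 0.583 (0.309 to 1.10), and both intervals include 1. The comparisons share the irradiated wild-type library. Thinned to 1000 UMIs, the shares were 0.969%, 1.01% and 0.471%, and the second ratio was 0.466 (0.269 to 0.806). Among cells of female type the second ratio was 0.369 (0.194 to 0.702) and the first 1.26 (0.633 to 2.52). At a 0.5% cut 26, 60 and 81 T cells passed, or 1.40%, 2.24% and 1.59%. The first ratio was then 1.60 (1.02 to 2.53), on the other side of 1 from the full counts, and the second 0.708 (0.509 to 0.985). In cells of at least 10000 UMIs the second ratio was 0.348 (0.179 to 0.677). The second ratio was thus below 1 beyond counting error under these 4 settings and not in the full counts. When cells were called from the 80 other phase genes, 5, 2 and 6 T cells passed, too few to order the libraries.

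**Figure D2:**
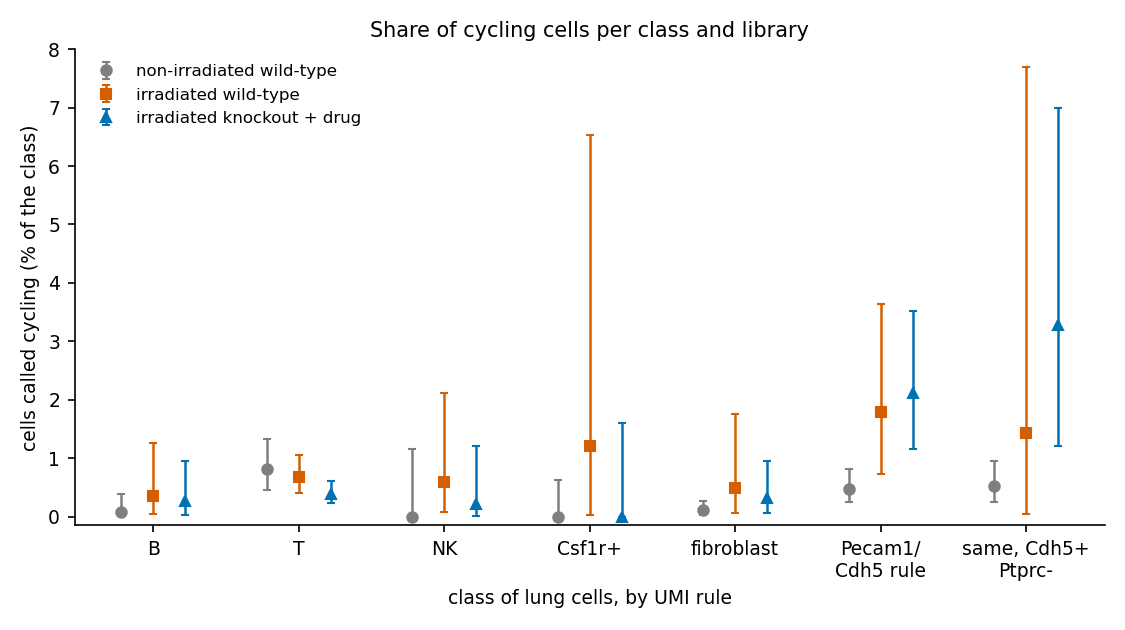
Share of cells called cycling (vertical axis, percent) in each class and library, with exact 95% binomial intervals of counting error; the last group repeats the endothelial rule with Cdh5 present and Ptprc absent. The intervals overlap in T cells. Under the endothelial rule the irradiated shares (1.79% and 2.11%) lie above the non-irradiated one (0.477%), but 74.5% and 62.9% of those irradiated cells carry Ptprc. There the irradiated wild-type interval (0.721 to 3.64) overlaps the non-irradiated one (0.254 to 0.815), and that of knockout-with-drug (1.16 to 3.52) does not.

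Within T cells, the cycling cells of the irradiated libraries were to a large part cells with Foxp3, the transcription factor of regulatory T cells. Foxp3 was seen in 1 of 15 cycling T cells without irradiation (6.67%), in 14 of 18 in irradiated wild-type (77.8%; 52.4 to 93.6) and in 8 of 20 in knockout-with-drug (40%; 19.1 to 63.9). T cells that were not cycling but had at least 10000 UMIs had Foxp3 in 4.86%, 19.2% and 6.73% of 329, 448 and 1174 cells. Their medians of 12443, 12662.5 and 12241.5 UMIs were still under the 17201, 26282 and 18617 of the cycling T cells, and a transcript is seen more often in a deeper cell. Cd4, the co-receptor of helper and regulatory T cells, was seen in 6, 13 and 9 of the cycling T cells, and Ikzf2 (Helios) in 5, 16 and 12. None of Foxp3, Cd4, Cd8 or Trdc, the γδ receptor constant gene, was seen in 5, 0 and 1 of them.

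Seen from the side of the subsets, 1 of 70 Foxp3-positive T cells was cycling without irradiation (1.43%; 0.0362 to 7.70). In irradiated wild-type it was 14 of 291 (4.81%; 2.65 to 7.94), and in knockout-with-drug 8 of 232 (3.45%; 1.5 to 6.68). The ratio of irradiated wild-type to non-irradiated was 3.37 (0.450 to 25.2), which rests on the single non-irradiated cell among 70, and in female-type cells it was 5.17 (0.692 to 38.5). T cells without a Foxp3 UMI went the other way, with 14 of 1787 (0.783%; 0.429 to 1.31), 4 of 2382 (0.168%; 0.0458 to 0.429) and 12 of 4866 (0.247%; 0.127 to 0.430). Against the non-irradiated share, that of irradiated wild-type had a ratio of 0.214 (0.0707 to 0.650) and that of knockout-with-drug one of 0.315 (0.146 to 0.679). In cells of female type these ratios were 0.262 (0.0755 to 0.910) and 0.301 (0.140 to 0.649). The depths of the cycling cells differed, as given above. After T cells of at least 10000 UMIs were thinned to 10000, with Foxp3 and the call both read afterwards, the shares without Foxp3 were 3.96% (13 of 328; 2.13 to 6.68), 2.37% (9 of 379; 1.09 to 4.46) and 1.17% (13 of 1115; 0.622 to 1.99). Those with Foxp3 were 0 of 15, 8 of 87 (9.20%; 4.05 to 17.3) and 7 of 75 (9.33%; 3.84 to 18.3). At equal depth the shares of irradiated wild-type and non-irradiated Foxp3-negative cells overlapped, and only the knockout-with-drug share stayed below the non-irradiated one. Foxp3 was read after thinning, so a cell that lost its Foxp3 UMIs counted as Foxp3-negative. Before thinning, irradiated wild-type T cells of at least 10000 UMIs gave 4 of 366 without Foxp3 and 14 of 100 with it. How much of the overlap came from such cells was not tested. In both irradiated libraries the Foxp3-positive share was above the Foxp3-negative share at equal depth, though in irradiated wild-type the bounds (4.05 and 4.46) just overlapped. At a 0.5% cut the Foxp3-negative ratios were 0.938 (0.550 to 1.60) and 0.842 (0.523 to 1.36), and both intervals include 1.

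**Figure D3:**
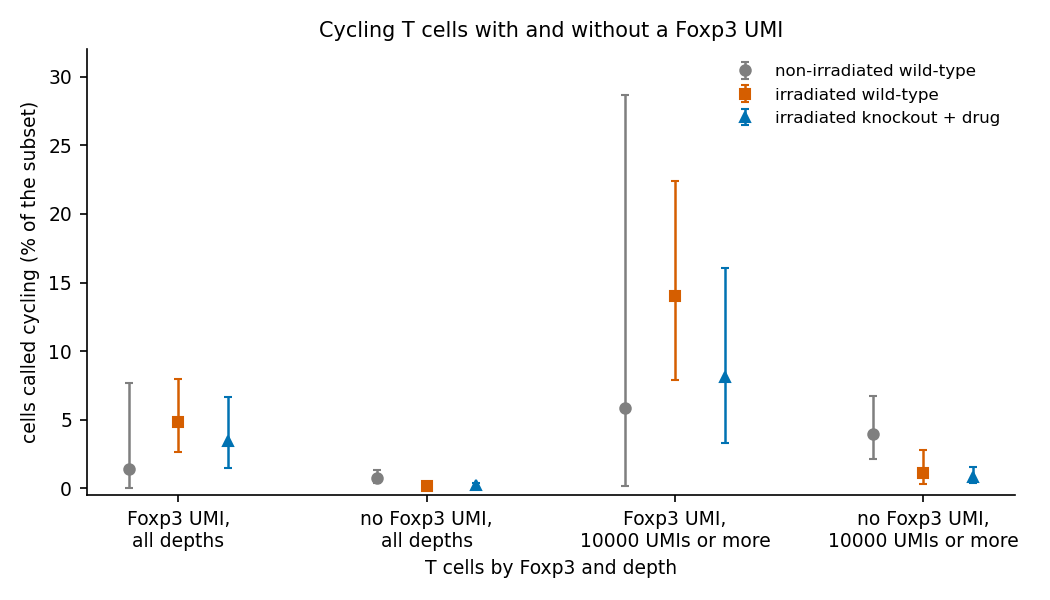
Share of T cells called cycling (percent, exact 95% binomial intervals) with and without a Foxp3 UMI, for all T cells and for those with at least 10000 UMIs. Among the deeper cells, 14.0% of Foxp3-positive irradiated wild-type cells and 1.09% of Foxp3-negative ones were cycling.

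Other T cell subsets held few cycling cells. Cells with Cd4 and no Foxp3 gave 5 of 218, 1 of 345 and 6 of 531 cells. Those with at least 2 UMIs of Cd8a and Cd8b1, the co-receptor of cytotoxic T cells, gave 2 of 350, 3 of 323 and 5 of 908, and those with Trdc 1 of 397, 1 of 851 and 2 of 1648. Over all cells of a subset, members summed to 1834, 3492 and 3402 CPM in Foxp3-positive T cells and to 1349, 1515 and 1441 CPM in Foxp3-negative ones. The Foxp3-positive level was thus the higher in all 3 libraries, and by more in the irradiated ones.

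Under the endothelial rule 13 of 2724 non-irradiated cells were cycling, a share of 0.477% (0.254 to 0.815). In the irradiated wild-type library it was 7 of 392 (1.79%; 0.721 to 3.64), and with knockout and drug 14 of 663 (2.11%; 1.16 to 3.52). The first ratio was 3.74 (1.5 to 9.32), beyond counting error, and the second 1.18 (0.481 to 2.90). In cells of female type the first was 6.68 (2.20 to 20.2) and the second 0.831 (0.292 to 2.37). The label does not describe these cells in every library. Cdh5 (VE-cadherin), which defines endothelium, had a UMI in 84.2% of them without irradiation and in 23.2% and 37.0% after it. Cldn5, the endothelial tight junction claudin, was seen in 82.0%, 18.9% and 33.8%. In T cells Cldn5 was seen in 25.0%, 0.823% and 2.67% and Cdh5 in 12.1%, 0.636% and 1.33%, so a UMI of either says less in the non-irradiated library. Under the endothelial rule Ptprc (CD45), the marker of all leukocytes, was seen in 24.0%, 74.5% and 62.9%, and Cd3e of the T cell receptor complex in 6.42%, 37.5% and 34.5%. Pecam1, which leukocytes also carry, was seen in 94.8%, 98.2% and 98.9%. Among the cycling cells themselves, 11 of 13, 1 of 7 and 6 of 14 had Cdh5, and 0, 4 and 6 met the T cell rule as well. The 7 endothelial markers summed to 6268, 1758 and 2473 CPM in the class, and the 8 T cell markers to 320, 1610 and 1715 CPM. In the irradiated libraries the rule is therefore called the Pecam1/Cdh5 rule below, and its values are of mixed cells. Its first ratio was 0.993 (0.122 to 8.05) when Stmn1 and Hmgb2 were left out of the call.

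Cells of the rule with Cdh5 and no Ptprc had 8282, 10073 and 8065 CPM of the 7 endothelial genes and 39.5, 35.2 and 90.9 CPM of the 8 T cell genes. Pecam1 and Cdh5 are among these 7 and set the class, so that sum is high by the rule. Cldn5, which took no part in the rule, was seen in 93.8%, 85.7% and 86.3% of the cells. Among the cycling ones it was seen in 8 of 10, 0 of 1 and 4 of 6. In this restricted class 10 of 1921 non-irradiated cells were cycling, a share of 0.521% (0.250 to 0.955). In irradiated wild-type it was 1 of 70 (1.43%; 0.0362 to 7.70), and in knockout-with-drug 6 of 183 (3.28%; 1.21 to 7.0). The ratio of knockout-with-drug to non-irradiated was 6.30 (2.32 to 17.1), and it was 4.37 (1.56 to 12.3) after thinning, 5.02 (1.74 to 14.5) without doublets, 8.66 (2.67 to 28.1) in female-type cells and 6.68 (2.62 to 17) with the 80 other phase genes. Those genes called 11, 1 and 7 cells. With 1 cycling cell in irradiated wild-type, its ratio to non-irradiated was 2.74 (0.356 to 21.1) and that of knockout-with-drug to it 2.30 (0.281 to 18.7), so the irradiated libraries cannot be ordered. This restriction was chosen after the marker values were seen.

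Fewer dividing cells were found in the other classes. B cells gave 1 of 1424 (0.0702%; 0.00178 to 0.391), 2 of 571 (0.35%; 0.0424 to 1.26) and 2 of 763 (0.262%; 0.0318 to 0.944), and the 2 cells of the irradiated wild-type library carried 12756 CPM of plasma cell genes. Among the 2 cycling B cells of the knockout-with-drug library, genes of type 2 alveolar epithelium summed to 133551 CPM, so these 2 barcodes together held more than B cell RNA. Of these 2, 1 had 29 UMIs of Epcam, an epithelial gene, and no Ptprc UMI, and it held 523 of their 658 G2/M UMIs. NK cells gave 0 of 316, which allows a share of up to 0.949%, then 2 of 339 (0.590%; 0.0715 to 2.11) and 1 of 462 (0.216%; 0.00548 to 1.2). The 1 cell of the knockout-with-drug library showed 1 of 8 NK markers, and it is also 1 of the 2 cycling B cells of that library. It held 24152 CPM of B cell genes and 35.1 CPM of NK genes, so it does not count as a dividing NK cell. Csf1r-positive cells gave 0 of 592 (up to 0.507%), 1 of 83 (1.2%; 0.0305 to 6.53) and 0 of 229 (up to 1.31%), and the 1 cell carried 6 of 6 alveolar macrophage markers. Fibroblasts gave 4 of 3822 (0.105%; 0.0285 to 0.268), 2 of 407 (0.491%; 0.0596 to 1.76) and 3 of 926 (0.324%; 0.0669 to 0.944), with a first ratio of 4.70 (0.863 to 25.6). In the full counts no ratio of shares in these 4 classes had an interval that excluded 1. For fibroblasts the first ratio was 9.47 (1.34 to 67.0) in cells of at least 3000 UMIs, 7.13 (1.01 to 50.3) in those of at least 10000, 8.81 (1.24 to 62.3) without doublets and 6.16 (1.03 to 36.8) at no more than 10% mitochondrial UMIs. In female-type cells it was 5.92 (0.538 to 65.1), and the ratio of knockout-with-drug to irradiated wild-type in NK cells was 0.356 (0.0224 to 5.65).

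The members were next followed gene by gene, with the UMIs of each class summed per library. A gene was taken as apart between libraries when its CPM, with 5 CPM added to each side, differed at least 2-fold and 30 or more UMIs were counted on the higher side. Of 240 pairs of member and class, 32 were apart and higher in irradiated wild-type than in non-irradiated, 0 were lower, 105 were not apart and 103 had too few UMIs. The 32 fall on 26 genes. Over the 6 classes, 2.2% of all tested pairs of gene and class were apart and higher and 7.22% apart and lower. A member could reach 30 UMIs through the library in which it was high, so these counts describe the members that could be seen and not all 40. Of the 32 pairs, 24 lay under the Pecam1/Cdh5 rule (background 5.87% higher and 12.5% lower), whose cells differ in kind between the libraries. Csf1r-positive cells held 5 (background 4.11% higher and 9.95% lower), B cells 2 (0.556% and 7.57%) and T cells 1 (0.701% and 5.23%). NK cells (1.05% and 7.08%) and fibroblasts (0.604% and 1.8%) held 0 each. Without the cells called cycling 15 pairs were higher, and in female-type cells 31. Between knockout-with-drug and irradiated wild-type, 4 pairs were higher (background 1.55%) and 3 lower (0.854%). Counts of genes above or below 0 are given below with the median of all genes tested. The share of all genes on the same side of 0 is not given, so such a count alone does not set the members apart.

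T cells had UMIs enough for all 40 members, and 39 of 40 had a log2 ratio above 0 in irradiated wild-type over non-irradiated, with a median of 0.47 against 0.07 for all 11832 genes tested. In the non-irradiated, irradiated wild-type and knockout-with-drug libraries, Mki67 was at 14.6 (12.7 to 16.7), 30.9 (28.6 to 33.3) and 15.2 (14.0 to 16.4) CPM. Ube2c, the ubiquitin-conjugating enzyme of the anaphase-promoting complex, was at 12.2, 30.9 and 16.4 CPM, and with a log2 ratio of 1.06 it was the single member apart. Both genes were thus highest in irradiated wild-type and near the non-irradiated level in knockout-with-drug. Top2a, the topoisomerase that untangles replicated DNA, was at 22.7, 43.6 and 29.6 CPM. Cdk1, the mitotic kinase, was at 5.70, 11.6 and 7.63 CPM, and its partner Ccnb1 at 3.44, 6.41 and 4.13. Of the S phase genes, Pcna was at 92.5 (87.7 to 97.6), 146 (141 to 151) and 107 (104 to 111) CPM, and Mcm5 at 18.3, 36.1 and 25.3. These 5 genes held the same order of libraries, irradiated wild-type highest, and none reached 2-fold. The lowest ratios were those of Cenpa (−0.18), Mcm4 (0.08) and Aurka (0.12).

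In T cells of knockout-with-drug against irradiated wild-type, 38 of 40 members had a ratio below 0, with a median of −0.34 against −0.06 for all genes, and none was apart (background 0.295% higher and 0.156% lower). Mki67 (−0.83), Ube2c (−0.75) and Pclaf (−0.72) had the lowest ratios, and Cenpa (0.16), Mcm4 (0.04) and Ccne2 (−0.03) the highest. The 2 comparisons share the irradiated wild-type library, so a value that was high there lowers the second ratio. The other phase genes, none of which entered the call, gave 34 of 34 S genes above 0 (median 0.27) and 38 of 41 G2/M genes (median 0.29) in the first comparison. The median of all genes tested was 0.07 there. In the second comparison, 30 of 34 (median −0.15) and 36 of 42 (median −0.21) were below 0, against a median of −0.06 for all genes. Gas2l3, a MuvB target that crosslinks the cytoskeleton in late mitosis, was apart in both, at 29.4, 94.4 and 35.0 CPM. Over all cells only 130 of its 5614 UMIs lay in cycling cells (2.52-fold), so its level is a weak sign of division here.

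**Figure D4:**
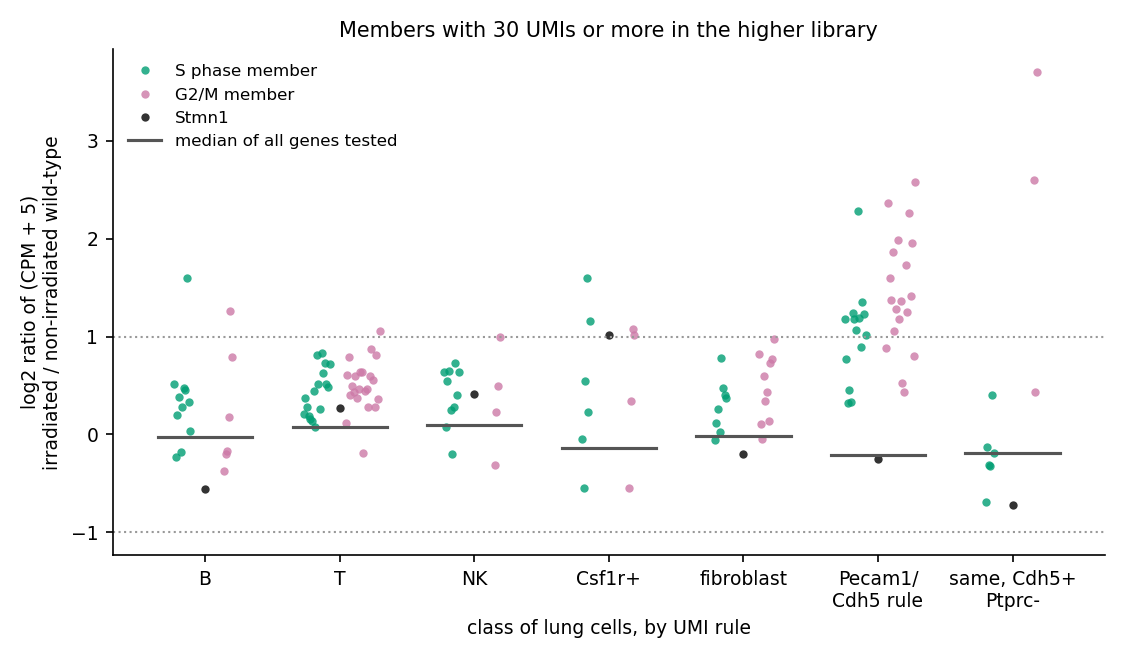
Log2 ratio of CPM (5 added) of each member in irradiated wild-type over non-irradiated, by class (S phase green, G2/M pink, Stmn1 black; the grey bar is the median of all genes tested in that class and the dotted lines mark 2-fold). Members lie mostly above the median of all genes, at 0.47 against 0.07 in T cells and 1.21 against −0.21 under the Pecam1/Cdh5 rule.

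Under the Pecam1/Cdh5 rule the differences were larger, but so was the shift in the kind of cell. Members tested there numbered 34, with 24 apart and higher, among them 9 of 14 S genes and 15 of 19 G2/M genes, and a median log2 ratio of 1.21 against −0.21 for all genes. Ube2c was at 5.33, 56.9 and 35.5 CPM (first ratio 2.58). Birc5 (survivin), of the chromosomal passenger complex, was at 4.51, 43.9 and 46.2 CPM (2.36), and Pclaf at 6.86, 52.8 and 77.5 (2.28). Mki67 was at 9.79, 66.0 and 42.9 CPM, Top2a at 12.0, 61.1 and 69.0, Cdk1 at 5.47, 18.7 and 24.5, and Ccnb1 at 1.15, 10.9 and 11.9. Pcna was at 49.3, 119 and 106 CPM and Mcm5 at 11.1, 33.0 and 45.7. Of these 9 genes, none had an interval in an irradiated library that reached the non-irradiated value. Stmn1 (−0.25), Mcm2 (0.33) and Mcm4 (0.34) had the lowest ratios. Between the irradiated libraries no member was apart (background 1.38% higher and 1.57% lower), with Ccne1 (0.77), Rrm2 (0.66) and Mcm3 (0.63) highest and Ube2c (−0.61), Mki67 (−0.57) and Ccnb2 (−0.42) lowest.

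In the Cdh5-positive, Ptprc-negative cells only 10 members could be tested in the first comparison. Ube2c stood at 5.65, 134 and 34.7 CPM and Birc5 at 5.01, 55.6 and 28.1, and both were apart in the first comparison (background 2.25% higher and 8.55% lower), but all 72 Ube2c UMIs and all 30 Birc5 UMIs of the irradiated wild-type library came from 1 cell. Members summed to 715, 1315 and 1391 CPM, of which cycling cells held 9.87%, 70.1% and 54.5%. Outside the cycling cells the sums were 646, 422 and 664 CPM, so in irradiated libraries the summed level lay largely in 1 and 6 cells. Mki67 stood at 9.94, 31.5 and 59.1 CPM, Top2a at 12.5, 44.5 and 69.5, Cdk1 at 5.51, 38.9 and 34.7, and Ccnb1 at 1.14, 33.4 and 8.13. The S genes Pcna (40.9, 55.6 and 58.4 CPM) and Mcm5 (8.51, 11.1 and 16.3) differed less. Stmn1 (−0.72), Cdt1 (−0.69) and Mcm6 (−0.32) had the lowest first ratios. Between the irradiated libraries Pclaf (1.48) was apart and higher in knockout-with-drug (background 4.15%) and Ube2c (−1.80) apart and lower (0.886%), followed by Mcm6 (0.88), Mki67 (0.81) and Birc5 (−0.87).

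In fibroblasts 16 of 19 members tested had a first ratio above 0, with a median of 0.38 against −0.02 for all genes. Ube2c (0.98; 4.17, 13.1 and 14.0 CPM), Birc5 (0.82; 2.32, 7.90 and 10.7 CPM) and Pclaf (0.78; 2.75, 8.35 and 14.3 CPM) were highest. Of the irradiated wild-type UMIs of Ube2c, 52 of 58 came from the 2 cycling cells. Stmn1 (−0.20), Mcm3 (−0.06) and Cdca8 (−0.05) were lowest. Mki67 was at 4.84, 11.3 and 9.94 CPM, Top2a at 6.63, 14.9 and 17.5, Cdk1 at 2.78, 6.77 and 9.09 and Ccnb1 at 1.33, 2.26 and 5.29. Pcna was at 33.0, 47.9 and 44.1 CPM and Mcm5 at 3.85, 4.97 and 9.51. All 6 genes were lowest without irradiation. The 2 cycling cells of irradiated wild-type held 8 and 31 Mki67 UMIs and 10 and 36 Top2a UMIs. Outside the cycling cells all members summed to 371, 367 and 523 CPM, so there the irradiated wild-type level was not above the non-irradiated one. Knockout-with-drug against irradiated wild-type gave 26 of 29 members above 0, with a median of 0.22 against 0.04 for all genes. The fibroblasts held 9459341 UMIs in knockout-with-drug and 4428725 in irradiated wild-type. A gene higher in knockout-with-drug thus reached the minimum of UMIs at a lower CPM, which favours ratios above 0 among members tested. The count of 26 is therefore not read as a result. Cdca8 (0.88), Rrm2 (0.56) and Mcm5 (0.54) were highest, and Rrm1 (−0.23), Mki67 (−0.13) and Pcna (−0.11) lowest. None was apart (background 0.943% higher and 0.347% lower).

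Smaller classes gave fewer members with UMIs enough. In B cells Pclaf (0.981 and 13.2 CPM, log2 ratio 1.60) and Mki67 (1.84, 11.4 and 9.48 CPM, first ratio 1.26) were apart and higher in irradiated wild-type, followed by Top2a (0.79), while Stmn1 (−0.56), Cdc20 (−0.37) and Gins2 (−0.23) were lowest. The 2 cycling B cells of irradiated wild-type held 20 and 12 Mki67 UMIs, and without cycling cells no member was apart and higher. Top2a was at 11.4, 23.4 and 23.1 CPM in B cells, Cdk1 at 1.59, 2.93 and 10.2, Ccnb1 at 1.35, 2.05 and 5.72, Pcna at 101, 128 and 110 and Mcm5 at 17.9, 22.8 and 20.4. Ube2c (1.40) and Cdc20 (1.05), which act together in mitotic exit, were apart and higher in knockout-with-drug than in irradiated wild-type B cells (background 0.658% higher and 0.98% lower), followed by Cdk1 (0.94), with Cdt1 (−0.52), Mcm2 (−0.46) and Pcna (−0.21) lowest. These sums include the cycling cell with Epcam and no Ptprc, and without cycling cells 1 member was apart and higher. NK cells had 13 of 15 members above 0 in the first comparison (median 0.42 against 0.09), led by Top2a (1.00), Pclaf (0.73) and Mcm4 (0.65), with Cenpa (−0.31), Mcm6 (−0.20) and Mcm2 (0.08) lowest. In the second, Mki67 (−1.71; 13.4, 20.9 and 2.94 CPM) and Rrm1 (−1.07) were apart and lower (background 4.07% higher and 0.749% lower), and 26 of the 37 irradiated wild-type Mki67 UMIs came from 2 cycling cells. Pclaf (−0.92) followed, and Mcm6 (0.25), Cenpa (0.16) and Tyms (0.14) were highest. Top2a was at 19.0, 43.0 and 20.6 CPM in NK cells, Cdk1 at 7.2, 11.9 and 7.71, Pcna at 99.8, 134 and 112 and Mcm5 at 21.6, 26.6 and 20.2, while Ccnb1 had 1, 0 and 0 UMIs.

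Csf1r-positive cells had Pclaf (1.60), Rrm1 (1.16), Mki67 (1.08), Top2a and Stmn1 (both 1.02) apart and higher in irradiated wild-type, with Cenpa and Mcm4 (both −0.54) and Mcm3 (−0.05) lowest. Without the 1 cycling cell of the class, no member was apart and higher. Mki67 was at 17.8, 43.2 and 18.8 CPM, Top2a at 10.9, 27.1 and 23.1, Cdk1 at 3.56, 7.40 and 11.5, Ccnb1 at 1.68, 1.23 and 6.06, Pcna at 68.7, 81.4 and 81.1 and Mcm5 at 8.38, 16.0 and 29.1. In knockout-with-drug against irradiated wild-type, Cenpa (1.05) and Ube2c (1.01) were apart and higher (background 3.41%) and Mki67 (−1.02) apart and lower (1.69%), with Ccnb2 (0.92), Rrm1 (−0.60) and Stmn1 (−0.47) next. Without the cycling cell, 4 members were apart and higher in this comparison and none lower. The class differed in kind too: cells with 3 or more UMIs of the alveolar macrophage genes numbered 106 of 592, 39 of 83 and 68 of 229, and their 6 markers summed to 2295, 8787 and 5074 CPM over the class. Cells with at least 2 UMIs of Ly6c2 and Ccr2, of monocytes, numbered 51, 14 and 43, none cycling, at 681, 799 and 2932 CPM of members. Mki67 was seen in 5.88%, 28.6% and 27.9% of these monocytes. Whether makeup moved the class values was not tested.

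S and G2/M members were then set against each other. Over all T cells the S members summed to 367, 549 and 431 CPM and the G2/M members to 915, 1159 and 1050 CPM, so S members gave 28.6%, 32.2% and 29.1% of the phase UMIs. Hmgb2 alone was at 622, 759 and 730 CPM, and without it the S share was 55.6%, 57.9% and 57.4%. Values of the irradiated wild-type library were again the highest on both phases. In B cells the S share was 35.8%, 40.2% and 33.9%, in NK cells 20.3%, 22.5% and 20% and in Csf1r-positive cells 36.3%, 37.3% and 35.8%. In fibroblasts S members summed to 133, 183 and 207 CPM and G2/M members to 184, 268 and 343 CPM, with S shares of 41.9%, 40.6% and 37.6%. Outside the cycling fibroblasts the S sums were 130, 168 and 196 CPM and the G2/M sums 174, 158 and 270 CPM. The S shares there were 42.7%, 51.5% and 42.1%. Under the Pecam1/Cdh5 rule S members summed to 224, 539 and 657 CPM and G2/M members to 340, 1293 and 1369, and the S share was 39.8%, 29.4% and 32.4%. It was 47.1%, 22.3% and 30.7% in the Cdh5-positive, Ptprc-negative cells. There the balance lay more to G2/M in the irradiated libraries, and outside the cycling cells the shares were 51.5%, 67.3% and 46.5%, which do not keep that order.

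In the cycling cells themselves, with Hmgb2 counted, G2/M UMIs outweighed S UMIs nearly everywhere. Cycling T cells had S shares of 28.6%, 29.2% and 29.5%, and per cell a median of 26.8% (2.27 to 50.9), 28.0% (9.73 to 46.6) and 28.3% (0 to 42.3). More S than G2/M UMIs were seen in 1 of 15, 0 of 18 and 0 of 20 of them. The phase makeup of cycling T cells was therefore alike in the 3 libraries within its spread between cells. Cycling cells of the Pecam1/Cdh5 rule had S shares of 23.0%, 28.3% and 28.8%, and those of fibroblasts 23.0%, 12.9% and 14.0% from 4, 2 and 3 cells. Hmgb2 weighs heavily in these shares, and without it those of cycling T cells were 48.5%, 46.7% and 47.5%, near an even balance of the phases. A median cycling cell had 6, 15 and 7 UMIs of Mki67, 5, 9 and 10 of Top2a, 43.5, 89 and 69 of Hmgb2 and 17.5, 31 and 22.5 of Stmn1. Mki67 was seen in 33 of 36, 28 of 28 and 33 of 34 cycling cells.

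**Figure D5:**
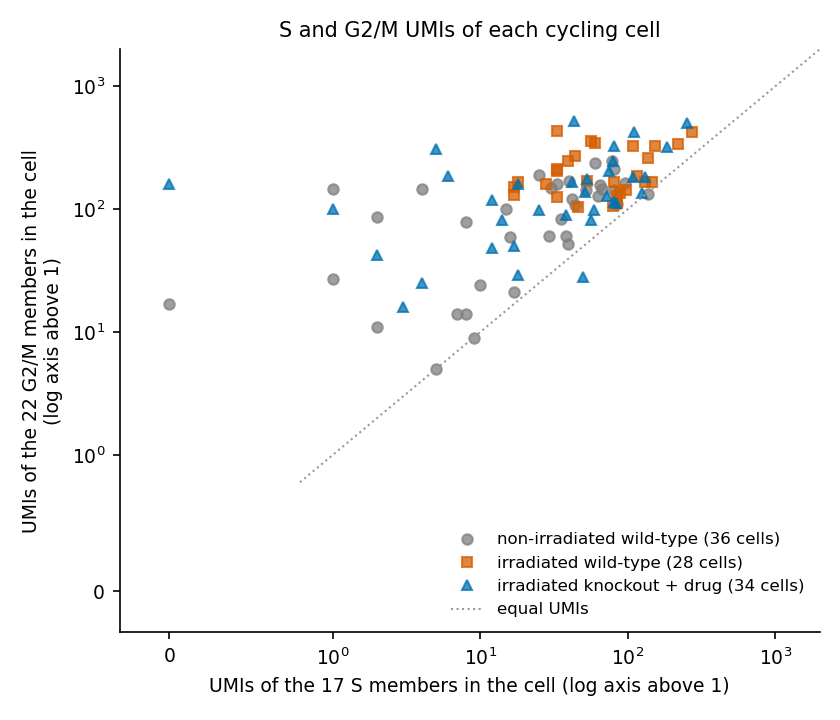
Each point is 1 cycling cell, with its UMIs of the 17 S members (horizontal) and of the 22 G2/M members (vertical) on axes that are linear near 0 and logarithmic beyond. The libraries (36, 28 and 34 cells) share 1 panel and are told apart by colour and marker. Of these cells 2 have more S than G2/M UMIs, 1 in the non-irradiated and 1 in the knockout-with-drug library, and the others lie on or beyond the dotted line of equal UMIs on the G2/M side.

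Mki67 by itself was seen in 3.93%, 5.65% and 3.83% of T cells and, after thinning to 1000 UMIs, in 0.915%, 1.01% and 0.706%. Under the Pecam1/Cdh5 rule the shares were 2.28%, 7.65% and 7.39%, and 0.808%, 1.79% and 1.66% after thinning. In Cdh5-positive, Ptprc-negative cells they were 1.82%, 1.43% and 6.01%, and 0.729%, 0 and 3.28% after thinning. The background in ciliated cells, which were deeper, was 1.75% in the non-irradiated and 2.38% in the irradiated wild-type library. The knockout-with-drug library gave none, because 1 of its 46 ciliated cells was called cycling. A single Mki67 UMI was not taken as a sign of division.

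Genes that hold cells out of the cycle or bring them into it were followed from lists of 7 Cdk inhibitors, 9 G1 cyclins, kinases and Myc genes, 20 E2F, Rb and MuvB genes and 15 genes of quiescence. Over the 6 classes 10 of 90 tested quiescence pairs of gene and class (11.1%) were apart and lower in irradiated wild-type than in non-irradiated, and 1 (1.11%) higher. Of all tested pairs 7.22% were lower and 2.2% higher, so these shares are near the background, and 5 of the 10 pairs are Klf2. Klf2 was lower in T cells (1340 and 397 CPM, log2 ratio −1.74), B cells (1532 and 701), Csf1r-positive cells (598 and 161), the Pecam1/Cdh5 rule (1173 and 475) and fibroblasts (378 and 166). In T cells it stood at 836 CPM in knockout-with-drug and was apart there from irradiated wild-type (1.07). Klf4 was lower in B cells, NK cells and under the Pecam1/Cdh5 rule, Txnip under that rule (−1.81) and Pik3ip1 in Csf1r-positive cells (−1.49), while Btg1 was higher under that rule (1.34). Of the Cdk inhibitors 2 of 34 pairs (5.88%) were higher and 4 (11.8%) lower, against the same 2.2% and 7.22%, which with so few pairs is no result about the list. Cdkn1a was higher in fibroblasts (129 and 347 CPM, 1.39; 256 in knockout-with-drug) and Cdkn2a (p16 and p19Arf) in Csf1r-positive cells (1.26 and 38.2 CPM, 2.79), where knockout-with-drug was lower at 16.2 (−1.03). Cdkn1c was lower in B cells (−1.26), Csf1r-positive cells (−1.27) and under the Pecam1/Cdh5 rule (−1.10), and Cdkn2d, an inhibitor of Cdk4 and Cdk6, in T cells (103 and 41.4 CPM, −1.22).

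In the Cdh5-positive, Ptprc-negative cells Cdkn1a stood at 219 CPM without irradiation, 955 in irradiated wild-type (first ratio 2.10) and 766 in knockout-with-drug. Cdkn2b (p15) stood at 15, 61.2 and 26.6 CPM (1.73) and was apart and lower in knockout-with-drug than in irradiated wild-type (−1.07). Ccnd1, cyclin D1 of G1, stood at 418, 1228 and 935 CPM (1.54), and its second ratio of −0.39 was not apart. The irradiated wild-type values come from 70 cells of 1 library, in which 2.25% of all genes tested were apart and higher, and the knockout-with-drug values from 183, in which 0.886% were apart and lower. Over the 6 classes the G1 list had 0 pairs higher and 3 of 45 lower (6.67%, near the 7.22% of all pairs), Ccnd1 in T cells (23.4 and 7.81 CPM) and B cells (25.8 and 8.78) and Ccnd3 under the Pecam1/Cdh5 rule (124 and 56.1). The E2F, Rb and MuvB list had 2 of 77 pairs higher (2.60%, near the 2.2% of all pairs) and 0 lower, Lin54, the DNA-binding MuvB subunit, in NK cells (42.7 and 95.6 CPM) and E2f1 in Csf1r-positive cells (10.7 and 27.1). Lin54 in T cells was at 31.6 and 61.5 CPM (0.86), short of the 2-fold rule. The 80 other phase genes had 7 of 131 S pairs (5.34%) and 18 of 126 G2/M pairs (14.3%) higher and none lower, against 2.2% and 7.22% of all pairs. Of these, 5 and 14 lay under the Pecam1/Cdh5 rule, where the background was 5.87% higher. Of 7 germinal centre genes, Fas, also a p53 target and death receptor, was lower in T cells (69.5 and 32.2 CPM) and Csf1r-positive cells (82.7 and 30.8). Between knockout-with-drug and irradiated wild-type 2 of 90 quiescence pairs and 1 of 149 other G2/M pairs were higher, and 1 of 35 inhibitor, 1 of 45 G1 and 2 of 149 other G2/M pairs lower. Over all pairs 1.55% were higher and 0.854% lower, and none of these counts is read as a result.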

How the data were processed

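The deposited matrices hold raw UMI counts per gene and barcode, which the authors made from their reads and did not normalize. Per the file headers they come from software version 3.1.0, which is not named, and per the submitters' processing notes the build is mm10. The aligner is not given in the sources used here. Total counts per library are in the report, and every listed barcode has at least 500 UMIs. From there, counts were summed per class and library and given as CPM with exact Poisson intervals. Shares have exact Clopper-Pearson intervals, ratios of shares log-normal ones, and a count of 0 allows 3 counts of the total, all at 95%. Reads with UMIs were counted once, and intervals cover counting error only.

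No test was possible, since each group is 1 library and cells are not replicates. A gene was apart at 2-fold or more with 5 CPM added and at least 30 UMIs in the higher library. Doublets were kept, and their removal with Scrublet in scanpy 1.11.5 was an alternative. Tables were handled with pandas 2.3.3 and numpy 2.4.6 in python 3.11.15, intervals came from scipy 1.17.1 and plots from matplotlib 3.10.9, with random seed 1 for thinning. The rule for apart was tested on simulated counts. The 40 members, the 6 class rules and all lists were chosen with earlier results of these data known. Named with values are Mki67, Top2a, Cdk1, Ccnb1, Pcna and Mcm5 in every class. Also named are the 3 highest and 3 lowest ratios per class and pair among members with 30 UMIs, the genes of each list with the largest ratios, and the 15 other genes most enriched in cycling cells. The restricted endothelial class, Foxp3 at equal depth, cells of 10000 UMIs or more and the ratios over all cells of a library were added after the data were seen. Promoters come from the RefSeq table of GRCm38.p6.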

Additional observations from a re-analysis of the deposited data

How the results depend on the processing

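No paired analysis was possible because each group has 1 library. Of the alternative ratios of cycling share over the 6 classes, 80 stayed within the counting interval of the full value and 7 lay outside it, and 23 further combinations gave no value for want of cycling cells or of 50 cells. These intervals are wide: 16 of the alternatives lay on the other side of 1 from the full value, in B, T and NK cells, fibroblasts and under the Pecam1/Cdh5 rule. In 9 the interval excluded 1 where that of the full value did not, all in T cells or fibroblasts and given in the report, and in 4 under the Pecam1/Cdh5 rule it included 1 where that of the full value did not. Under the Pecam1/Cdh5 rule the ratio of irradiated wild-type to non-irradiated, 3.74, was 0.993 without Stmn1 and Hmgb2, 1.07 with the 80 other phase genes and 21.7 in cells of at least 10000 UMIs. The ratio of knockout-with-drug to irradiated wild-type there, 1.18, was 3.55 and 2.96 under the first 2 of these. In T cells the other phase genes gave 0.278 in place of 0.834 and 1.57 in place of 0.583, from 2 to 6 called cells per library. The cause of these moves was not tested.

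The count of members higher in irradiated wild-type, 32, was 9 with 20 CPM added, 16 with at least 100 UMIs, 3 with equal cells thinned to 1000 UMIs, 13 in cells of exactly 1 class, 10 with the restricted endothelial class and 15 without cycling cells. The count of lower members, 0, was 1 after thinning and 1 in cells of exactly 1 class. In knockout-with-drug against irradiated wild-type, the count of higher members, 4, was 14 with 1 CPM added, 0 with 20 CPM, 2 with at least 100 UMIs, 0 after thinning, 8 in cells of exactly 1 class, 14 in female-type cells and 8 without cycling cells. The count of lower members, 3, was 5 with 1 CPM added, 0 with 20 CPM, 0 with at least 100 UMIs, 1 with median-of-ratios scaling, 0 after thinning, 6 in female-type cells and 1 without cycling cells. Thinning left fewer UMIs to reach the minimum of 30. Of the alternative ratios for T cells with and without Foxp3 and for the restricted endothelial class, 77 stayed within the counting interval of the full value, 4 lay on the other side of 1, 7 intervals came to include 1, and the 2 ratios that left the interval were the Foxp3-negative ratios at the 0.5% cut given in the report. Scrublet removed 11 of the 98 cycling cells.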

Other observations

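Basophils, cells with at least 2 Mcpt8 UMIs, numbered 7, 14 and 19 in the non-irradiated, irradiated wild-type and knockout-with-drug libraries, and none was called cycling. Members summed to 348, 541 and 2344 CPM in them. The cells that met none of the 6 class rules included 3, 1 and 1 cycling cells, and their members summed to 867, 1192 and 1331 CPM. Ccnd2 (0.524-fold) and Ccnd3 (1.21-fold), the cyclin D genes of lymphocytes, were not concentrated in cycling cells, and neither was Cdkn1b (1.07-fold).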
